A study of Mus musculus with 4 samples.

Results

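The transcription factor p53 and 9 genes that it controls or that control it were followed in sorted leukemic blasts of mice. The 10 genes were chosen as a pathway: Trp53, the gene of p53, its inhibitors Mdm2 and Mdm4, and the target genes Ccng1, Phlda3, Sesn1, Trp53inp1, Zmat3, Aen and Tnfrsf10b. Probe sets that the platform annotation pairs with a single member were used, which gave 24 probe sets of 9 genes among 34945 probe sets of 18193 genes in all. No probe set was paired with Trp53 itself in that annotation, so its level was not analysed here. For each gene the probe set with the highest mean log2 value over the arrays gave the main value.

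The study measured 4 Affymetrix arrays, made from blood and spleen of the same 2 mice, with 2 arrays per tissue. The blasts came from an M7 (megakaryoblastic) leukemia that arose when fetal progenitors with a mutant Gata1, labelled Gata1s, underwent insertional mutagenesis by a retrovirus. All 4 samples share the Gata1 mutation, the retrovirus with its GFP reporter, the sort for GFP-positive cells and the lack of any treatment or culture, and the arrays include no normal cells and no blasts without the mutation. The labels give both mice the same leukemia designation and give no age, sex or strain, and p-values measure only the spread between these 2 animals. The array medians lay between 104 and 111 intensity units. Of 10 measured megakaryocyte markers 9 were above the brightness filter, beside 11614 of all 18193 genes. The M7 type is taken from the labels.

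p53 is a DNA-binding protein that cells hold at a low level until DNA damage or oncogene activity stabilises it. Mdm2 tags it for degradation and Mdm4 blocks its activity, while Mdm2 is itself a p53 target, so that the pathway forms a feedback loop. Its other targets halt the cell cycle, repair DNA, adjust metabolism or kill the cell, and the pathway is a barrier that many leukemias disable. Its activity rests largely on the protein, which these arrays do not measure.

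p53 binds a short decamer that occurs in pairs in its response elements. The decamer was searched on the 250 bases before each transcription start in the RefSeq promoter table of mouse build GRCm38.p6, which held 9 such windows for 6 of the 9 measured members. The p53 consensus decamer is its own reverse complement, so a single search covers both strands. A match was found in 4 of the 9 windows, for Ccng1, Sesn1, Mdm2 and Aen, and in 7.13% of all 32851 windows. An adjacent pair of decamers with at most 1 mismatch over its 20 bases was found for Ccng1 alone among the members, and in 25 of all windows (0.0761%). The Ccng1 window is shown because of that pair, and the others because they hold a single decamer. Capitals mark the pair in Ccng1 and the decamer in the other genes. The window of Aen runs into another transcript of that gene, so only the decamer with 10 bases on either side is given.
Ccng1, chr11:40755287-40755536, minus strand: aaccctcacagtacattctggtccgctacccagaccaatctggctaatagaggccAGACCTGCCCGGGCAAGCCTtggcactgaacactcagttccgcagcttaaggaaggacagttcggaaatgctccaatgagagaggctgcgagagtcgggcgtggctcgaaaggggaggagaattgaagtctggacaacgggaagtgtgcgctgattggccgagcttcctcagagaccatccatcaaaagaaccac
Sesn1, chr10:41887189-41887438, plus strand: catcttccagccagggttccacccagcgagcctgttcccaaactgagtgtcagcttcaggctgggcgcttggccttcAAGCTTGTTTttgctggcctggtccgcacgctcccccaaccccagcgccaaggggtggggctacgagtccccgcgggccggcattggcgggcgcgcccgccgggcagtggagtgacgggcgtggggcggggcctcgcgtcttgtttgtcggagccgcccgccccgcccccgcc
Mdm2, chr10:117710759-117711008, minus strand: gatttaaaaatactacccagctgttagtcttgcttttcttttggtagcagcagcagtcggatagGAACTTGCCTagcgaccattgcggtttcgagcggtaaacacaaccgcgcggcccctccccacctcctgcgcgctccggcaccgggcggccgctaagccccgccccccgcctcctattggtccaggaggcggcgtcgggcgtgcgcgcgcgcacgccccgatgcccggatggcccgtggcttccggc
Aen, chr7:78895927-78895956, plus strand: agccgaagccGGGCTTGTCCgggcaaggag
The pair in Ccng1 starts 195 bases before the transcription start. The decamer starts 173 bases before it in Sesn1, 186 bases before it in Mdm2 and 121 bases before it in Aen. A match describes these letters and is not a measured binding site.

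Of the 9 measured members 6 were above the brightness filter and 3 below it, beside 11614 of all 18193 genes above it. Mdm2, Mdm4, Ccng1, Sesn1, Aen and Trp53inp1 had a mean above the brightness filter, an intensity of 106, which is the median over all probe sets, and these 6 were tested. Phlda3, Zmat3 and Tnfrsf10b lay below it on every array and were not tested. Probe sets differ in brightness, so the levels of different genes are not ranked.

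**Figure D1:**
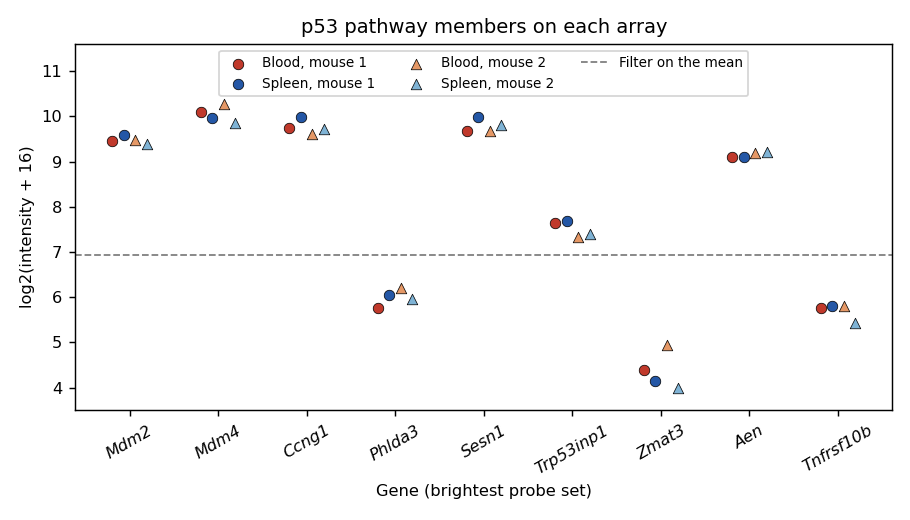
Level of the brightest probe set of each of the 9 measured members as log2(intensity + 16) on the 4 arrays, circles for mouse 1 and triangles for mouse 2, with the brightness filter dashed. For 6 genes all 4 arrays lie above the filter, and for Phlda3, Zmat3 and Tnfrsf10b all 4 lie below it.

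The question put to the data was whether blasts differed between spleen and blood. For the p53 members the answer at this precision was that no difference passed the test. With limma, 0 of the 6 tested members had an adjusted p under 0.05, and 0 had an unadjusted p under 0.05. Over all 11614 genes tested, 0 had an adjusted p under 0.05 (0%) and 1443 an unadjusted p under 0.05 (12.4%). In spleen 4 of the 6 tested members were higher in both mice, against 38.5% of all genes tested, 1 was lower in both, against 25.1%, and 1 went opposite ways, against 36.4%. The median difference of spleen minus blood was 0.040 on the log2 scale over the 6 tested members and 0.029 over all genes tested. Over all 9 measured members it was 0.015, and over all 18193 genes it was 0.011. The median over the 9 members turned to -0.020 with quantile normalization, -0.036 without blood replicate 1 and -0.078 without spleen replicate 1. In RNA of many cells, fewer cells of a kind and less RNA per cell cannot be told apart.

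Mdm2, the ubiquitin ligase that degrades p53, is the first of the pair of inhibitors. In mouse 1 its intensity was 683 in blood and 757 in spleen, and in mouse 2 it was 699 and 654. The tissues overlapped, with spleen above blood in mouse 1 and below it in mouse 2. The log2 difference of spleen minus blood was 0.026 ± 0.12 (SE, 2 arrays per tissue), with a limma adjusted p = 0.945. The 95% interval of the fold of spleen over blood ran from 0.825 to 1.26, so a change within those bounds was not excluded. Without spleen replicate 1 the difference was -0.078, and with quantile normalization it was -0.02. The second Mdm2 probe set ordered the arrays alike, with blood at 233 and spleen at 290 in mouse 1 against 240 and 221 in mouse 2. The third was dim, between 34.3 and 51.6.

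Mdm4, the relative of Mdm2 that binds p53 and blocks its activity, had the lowest p among the members. In mouse 1 its intensity was 1075 in blood and 977 in spleen, and in mouse 2 it was 1216 and 909. Both blood arrays stood above both spleen arrays. The share of all genes tested with such a separation was not counted, here or for Sesn1 below. The log2 difference was -0.27 ± 0.12 (SE, 2 arrays per tissue), which did not pass, with a limma adjusted p = 0.437 and an unadjusted p = 0.067. The unadjusted p of Mdm4 was 0.025 with quantile normalization, 0.048 with the stricter filter and 0.048 with an intensity trend in the prior, and between 0.055 and 0.71 under the other 10 alternatives. The 95% interval of the fold of spleen over blood ran from 0.671 to 1.02. The other 3 probe sets of Mdm4 were dimmer, with means between 86.2 and 168, and each was higher in spleen of mouse 1 and lower in spleen of mouse 2. Their log2 differences were -0.061, 0.041 and 0.10, and the mean over all 4 probe sets was -0.048. A lower level in spleen of both mice was thus seen for 1 probe set of 4.

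Ccng1, cyclin G1, a p53 target that acts on Mdm2 through a phosphatase, carried the pair of decamers shown above. In mouse 1 its intensity was 844 in blood and 992 in spleen, and in mouse 2 it was 768 and 825. Spleen was above blood in each mouse, but the tissues overlapped, since blood of mouse 1 exceeded spleen of mouse 2. The log2 difference was 0.16 ± 0.14 (SE, 2 arrays per tissue), with a limma adjusted p = 0.655. The 95% interval of the fold ran from 0.888 to 1.42. Without spleen replicate 1 the difference was 0.034, without blood replicate 2 it was 0.098 and without spleen replicate 2 it was 0.30. The other probe sets of Ccng1 differed by 0.13 and 0.13, and all 3 were highest in spleen of mouse 1. Of the 3, 2 were higher in spleen in both mice, and 1 went opposite ways, with 0.34 in mouse 1 and -0.070 in mouse 2.

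Sesn1, a sestrin that restrains the growth kinase complex mTORC1 under stress, differed by 0.22 ± 0.12 on the log2 scale (SE, 2 arrays per tissue), with a limma adjusted p = 0.498. In mouse 1 its intensity was 806 in blood and 1001 in spleen, and in mouse 2 it was 798 and 880. Both spleen arrays stood above both blood arrays. The 95% interval of the fold ran from 0.952 to 1.43. Of the 4 probe sets 3 were higher in spleen in both mice, and the dimmest, between 137 and 158, was lower in both. The mean of all 4 differed by 0.13, and without spleen replicate 1 the difference was also 0.13.

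Aen, a nuclease that takes part in p53-dependent cell death, had the smallest difference of the tested members. In mouse 1 its intensity was 531 in blood and 536 in spleen, and in mouse 2 it was 571 and 576. The log2 difference was 0.015 ± 0.12 (SE, 2 arrays per tissue), with a limma adjusted p = 0.968. The 95% interval of the fold ran from 0.830 to 1.23, so equal levels were not shown. The difference was -0.036 when blood replicate 1 was left out and -0.036 without spleen replicate 2, and with quantile normalization it was -0.02. The other 3 probe sets, with means between 60.5 and 104, differed by -0.21, 0.31 and -0.070, so they did not share a direction.

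Trp53inp1, a nuclear protein that promotes p53 phosphorylation and cell death, gave different patterns with its pair of probe sets. In mouse 1 the brighter stood at 183 in blood and 189 in spleen, and in mouse 2 at 146 and 153. Its log2 difference was 0.054 ± 0.16 (SE, 2 arrays per tissue), with a limma adjusted p = 0.910. The 95% interval of the fold ran from 0.794 to 1.36. The other probe set went from 106 in blood to 140 in spleen in mouse 1 and from 193 to 80.7 in mouse 2, with within-mouse differences of 0.35 and -1.11. The mean of both was -0.16. Without spleen replicate 1 the brighter probe set differed by -0.084, and without blood replicate 2 by -0.093.

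**Figure D2:**
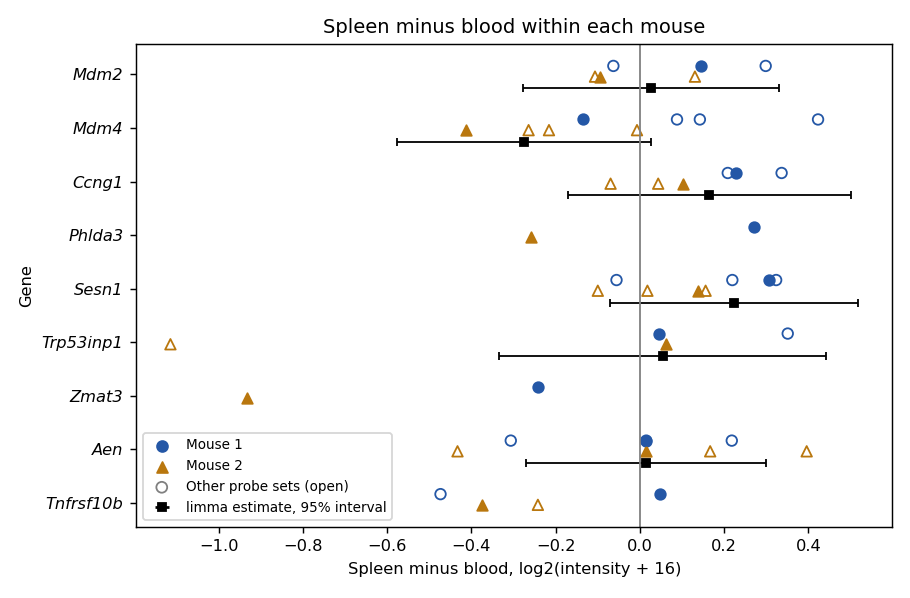
Spleen minus blood on the log2(intensity + 16) scale for all 24 probe sets of the 9 measured members, circles for mouse 1 and triangles for mouse 2, filled for the brightest probe set; squares with bars give the limma estimate and its 95% interval for the 6 tested genes. All 6 intervals include 0, and the probe sets of Mdm4 and Aen lie on both sides of it.

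The dim members were a signal inhibitor, an RNA-binding protein and a death receptor. Phlda3, which competes with the survival kinase Akt for the membrane, stood at 38.6 in blood and 49.9 in spleen in mouse 1, against 58.2 and 46.0 in mouse 2. Tnfrsf10b, the receptor of the death ligand TRAIL, had 37.9, 39.8, 40.1 and 27.2 in the same order, and its other probe set lay between 14.0 and 44.3. Zmat3, a zinc finger protein that binds RNA, was at or near 0 with 4.90 and 1.66 in mouse 1 and 14.5 and -11.3 in mouse 2. Nothing can be read from the differences of Zmat3, whose log2 value changed from -0.59 to -1.43 when the offset was 4 in place of 16.

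For Ccng1 and Sesn1, singled out here after the members' values were seen, the mice differed the same way over all probe sets. All 3 probe sets of Ccng1 and all 4 of Sesn1 were lower in mouse 2 than in mouse 1 in both tissues. By the brightest probe set 3 of the 6 tested members had that pattern, against 30.7% of all genes tested. Beside Ccng1 and Sesn1 this was Trp53inp1, at -0.29 in blood and -0.28 in spleen, while its other probe set differed by 0.77 and -0.69. Probe sets of a gene share their target and are not independent. The brightest Ccng1 probe set differed by -0.13 in blood and -0.26 in spleen, and the probe set with the largest gap by -0.41 and -0.82, with intensities of 458 and 583 in mouse 1 and of 341 and 324 in mouse 2. The brightest Sesn1 probe set differed by -0.013 and -0.18, and the other 3 by between -0.083 and -0.22 in blood and between -0.13 and -0.42 in spleen. With quantile normalization all 7 kept this direction. With arrays centred on their medians 6 did, and the brightest Sesn1 probe set differed by 0.0064 in blood. Aen went the other way for its brightest probe set, higher in mouse 2 by 0.10 in blood and 0.10 in spleen, where 27.4% of all genes tested were higher in mouse 2 in both tissues. Each side of this comparison holds 1 animal, so it has no test.

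**Figure D3:**
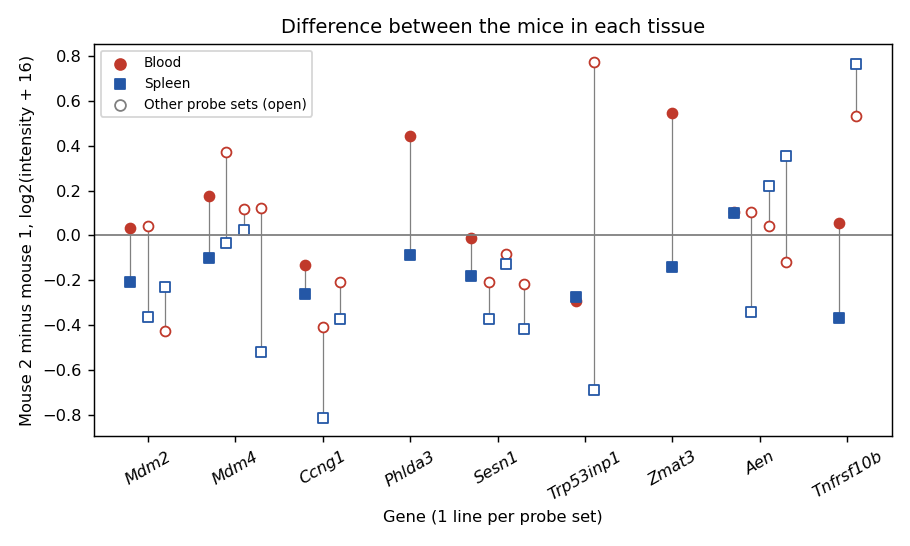
Mouse 2 minus mouse 1 on the log2(intensity + 16) scale in blood (circles) and spleen (squares), with a line for each probe set and filled symbols for the brightest. All 3 probe sets of Ccng1 and all 4 of Sesn1 lie below 0 in both tissues.

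Mdm4 was highest in the blood of mouse 2 and lowest in its spleen, the 1 of 6 tested members with this order, against 11.9% of all genes tested. The dimmer probe set of Trp53inp1, 1 dimmer probe set of Aen and the brightest of Tnfrsf10b, which was below the filter, had it too. So did Zmat3, whose values were near 0. Several lists held this order among their tested genes. It was seen for 8 of 9 granulocyte genes, 5 of 6 of the macrophage and monocyte list and 6 of 13 of the T and NK cell list. It was also seen for 8 of 11 immediate early genes and 4 of 12 p53 targets of cell death. Those of the T and NK cell list were Gzma, Gzmb, Prf1, Klrd1, Ncr1 and Il2rb. Cd3e, Cd3g and Cd4 were highest in blood of mouse 1 and Cd8a in spleen of mouse 1. Zap70, Cd2 and Nkg7 were highest in blood of mouse 2 but not lowest in its spleen. Intensities were summed over the tested genes of each list, given here for mouse 1 and then mouse 2. Granulocyte markers summed to 6869 and 16830.5 in blood and 4225 and 1264 in spleen. Macrophage markers summed to 1453 and 3301 in blood and 1576 and 961 in spleen. T and NK markers summed to 8131 and 11577 in blood and 9495 and 6131 in spleen. C1qa, C1qb, C1qc and Mrc1 of the macrophage list were not tested, since their mean log2 value was below the filter. Each peaked in spleen of mouse 1, at 132, 273, 231 and 104. Cd14, also untested, had the order of Mdm4, with 311 in blood and 34.7 in spleen of mouse 2. S100a9, a neutrophil protein, had the largest range of the granulocyte list, from 144 to 5862. Mpeg1 of macrophages ran from 24.7 to 708 and Gzma of NK and T cells from 171 to 3486. No marker of these 3 lists was at or under 16 on every array, and the part of such cells in the members' values was not tested. B cell markers were mostly dim, with 8 of 9 below the filter intensity, and Pax5, the 1 tested, lay between 250 and 350. Erythroid markers had a median difference of 0.030, and Hemgn, with the widest range, ran from an intensity of 789 to 1399. Megakaryocyte markers had a median difference of 0.23, and Treml1, with the widest range, ran from 73.8 to 319.

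Beyond the members, 6 lists covered the wider pathway, with 68 of 82 genes tested. Of these 0 passed with limma over all genes. At an unadjusted p under 0.05, 9 were higher in spleen, against 8.12% of all genes tested, and 6 lower, against 4.31%. By direction 24 were higher in both mice, against 38.5%, 22 lower, against 25.1%, and 22 opposite, against 36.4%. The median of the 68 was 0.017, beside 0.029 over all genes tested.

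The list upstream of p53 held 10 tested genes, mostly kinases and adaptors that sense broken or stalled DNA. In spleen 7 were higher in both mice and 1 lower, against 38.5% and 25.1% of all genes tested. An unadjusted p under 0.05 with limma was found for 3, against 12.4%, and the median difference was 0.20. Topbp1, an activator of the checkpoint kinase Atr, went from an intensity of 1111 in blood to 1513 in spleen in mouse 1 and from 1171 to 1626 in mouse 2, without overlap, and a log2 difference of 0.45 ± 0.11 (limma adjusted p = 0.258). Its other probe set differed by -0.082. Mdc1, a scaffold at DNA breaks, differed by 0.37 ± 0.12 (limma adjusted p = 0.346, unadjusted p = 0.024). Chek1, the checkpoint kinase that Atr activates, was named after its values were seen as the third with an unadjusted p under 0.05, and differed by 0.39 ± 0.14 (limma adjusted p = 0.366, unadjusted p = 0.034). Of its 5 probe sets 4 had that direction, and the mean of all 5 was 0.18. Chek2, the checkpoint kinase that phosphorylates p53, differed by 0.28 ± 0.11 (limma adjusted p = 0.405, unadjusted p = 0.051). In a separate list of mitosis genes all 17 tested were higher in spleen of each mouse, with a median of 0.83. The spindle kinase Aurka had the widest range, from 229 to 623, and the part of these genes in the values of the upstream genes was not tested. Of 16 tested modifiers and cofactors 5 were higher in both mice, 3 lower and 8 opposite. The shares over all genes tested were 38.5%, 25.1% and 36.4%. With limma 0 of the 16 had an unadjusted p under 0.05, and their median was 0.048. The ubiquitin ligase Cop1 differed by 0.23 ± 0.11, the cofactor Ppp1r13b by -0.18 ± 0.16 and the nucleolar protein Npm1 by 0.11 ± 0.11. Leaving out each array in turn moved Ppp1r13b to between -0.34 (without blood replicate 2) and -0.025 (without blood replicate 1), with -0.32 without spleen replicate 1 and -0.045 without spleen replicate 2. Of the p53 family Trp73 was tested, at -0.11 ± 0.12, and its other probe set differed by 0.22. Without blood replicate 1 Trp73 differed by -0.20 and without blood replicate 2 by -0.033.

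Other p53 targets held the widest differences of the pathway, in both directions. Of 41 tested, 12 were higher in spleen in both mice, 17 lower and 12 opposite, with a median of -0.027. The shares over all genes tested were 38.5%, 25.1% and 36.4%. At an unadjusted p under 0.05 with limma, 6 of the 41 were higher in spleen, against 8.12% of all genes tested, and 6 lower, against 4.31%. Among 9 tested genes of arrest and feedback, Ier5, an early response gene, went from an intensity of 1239 in blood to 623 in spleen in mouse 1 and from 1165 to 444 in mouse 2. Its log2 difference was -1.17 ± 0.18 (SE, 2 arrays per tissue; limma adjusted p = 0.140), and its 3 probe sets shared the direction, with the smallest at -0.20 and a mean of -0.71. With 3 alternatives it passed: the stricter filter (limma adjusted p = 0.0472), a prior with an intensity trend (0.0491) and the fit without spleen replicate 1 (0.0461). Over all 13 alternatives its adjusted p ran from 0.0461 to 0.693. Btg2, an antiproliferative protein, went from 1314 to 681 in mouse 1 and from 1051 to 464 in mouse 2. It differed by -1.04 ± 0.21 (limma adjusted p = 0.188), its other probe set by -0.44, and the mean of both was -0.74. Ckap2, a protein of the mitotic spindle, went the other way, from 226 in blood to 381 in spleen in mouse 1. In mouse 2 it went from 220 to 460, and the log2 difference was 0.86 ± 0.13 (limma adjusted p = 0.143). Mitosis genes were higher in spleen of each mouse for all 17 tested, with a median of 0.83. Their part in the value of Ckap2 was not tested. Blood and spleen did not overlap for Ier5, Btg2 and Ckap2. Since they were named for a large difference of shared direction in both mice, this separation is not a separate result. The cell cycle inhibitor Cdkn1a, which is often used as a readout of p53, was named for that role after its values were seen. It was below the filter, with blood at 61.8 and spleen at 64.2 in mouse 1 against 89.4 and 39.4 in mouse 2, and was not tested.

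Of 12 tested genes of cell death 4 were higher in both mice and 6 lower, against 38.5% and 25.1% of all genes tested. Their median was -0.035. Pmaip1, a BH3-only killer protein known as Noxa, went from 266 in blood to 184 in spleen in mouse 1 and from 302 to 130 in mouse 2, and differed by -0.81 ± 0.18 (limma adjusted p = 0.210). The membrane protein Perp differed by 0.47 ± 0.12 and Siva1, a partner of death receptors, by 0.35 ± 0.13, with all 4 probe sets of Siva1 higher in spleen. Of 20 tested genes of repair and metabolism 6 were higher in both mice and 8 lower, against the same shares, with a median of -0.020. Ddit4, an inhibitor of mTORC1, went from 165 to 110 in mouse 1 and from 244 to 93.0 in mouse 2, and differed by -0.89 ± 0.20 (limma adjusted p = 0.210). Polh, a polymerase that copies past lesions, differed by 0.52 ± 0.14, but only 1 of its 4 probe sets had that direction, and their mean was -0.15. Xpc, a sensor of DNA lesions, differed by -0.30 ± 0.13, and by -0.19 without spleen replicate 2. Immediate early genes, the fast answer of cells to stimuli, were lower in spleen of each mouse for all 11 tested, with a median of -1.37, and Fos, with the widest range, went from 299 to 67.7 in mouse 1 and from 855 to 3.26 in mouse 2. The part of that response in the values of Ier5, Btg2, Pmaip1 and Ddit4 was not tested.

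**Figure D4:**
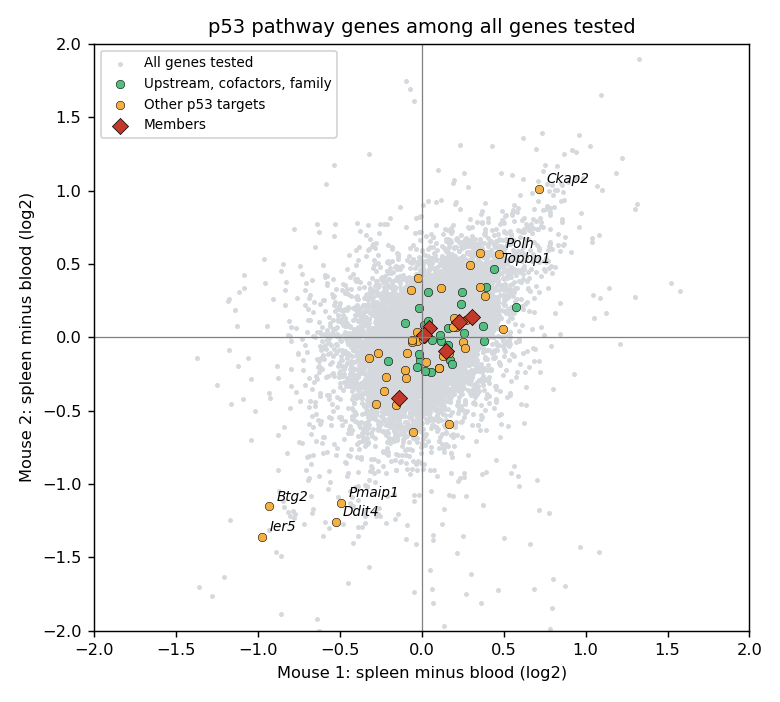
Spleen minus blood in mouse 1 (x axis) against mouse 2 (y axis), log2(intensity + 16), for all genes tested (grey), the 6 tested members (diamonds) and the 68 tested genes of the wider pathway (circles); 46 genes lie beyond the axis limits of 2. The members lie close to the centre, while Ier5 and Btg2 stand low and Ckap2 high in both mice.

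Likeness of pattern over the 4 arrays was measured as the root mean square difference of log2 values centred on each gene's mean. The member with the largest range was Zmat3, and the tested genes most like it were Neurod4, Anxa6, Pbxip1, Spata17 and Sirpb1a, with differences between 0.055 and 0.070. Zmat3 was near 0 and centring removes the level, so nothing can be read from this likeness. Mdm4, the tested member with the largest range and chosen here after its values were seen, was most like Stx8, Mlxip, Tspoap1, Rfx1 and Mgat1, between 0.0081 and 0.016. Within 0.05 lay 167 of the 11614 genes tested for Mdm4 and 0 for Zmat3.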

How the data were processed

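The values were deposited by the authors as probe set intensities on a linear scale, judged from their range. The labels' protocols give Trizol extraction and biotinylated cRNA made by the Affymetrix standard. Probe summary, background and scaling are not given in the sources used here, and the deposited scaling was kept. Values below 0 made up 1.60% to 2.17% of each array. They were raised to 0, and log2(value + 16) was used, which understates the changes of dim genes. Of 45101 probe sets, 34945 were paired with 1 gene, 932 with several and 9160 with none listed, beside 64 controls. Symbols were updated through Entrez identifiers with the RefSeq table of GRCm38.p6, which held 34741 of them. Each gene took its probe set with the highest mean, and the 11614 genes whose mean reached the median over all probe sets were tested.

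The difference of spleen minus blood was fitted in R 4.3.3 by limma 3.58.1, using lmFit and eBayes with a term for tissue only. Tests were two-sided, with Benjamini-Hochberg adjustment over all genes tested. The fit was tested on simulated data. The arrays are paired by animal, as the labels take both tissues from each mouse. The difference of mouse 2 from mouse 1 had a correlation of r = 0.10 between the tissues, taken across genes, which are not independent replicates. The number of arrays limits precision. The members and lists were chosen with earlier results of these data known. Named genes were the 10 members, and of each wider list the 3 tested genes that differed most in the mouse with the smaller difference, given a shared direction. Of each list of markers, the gene with the widest range was named, and the 5 genes most like the member with the widest range. Alternatives were the offset, the filter, the scaling, the probe set rule, the mouse as a block, the prior and leaving out each array.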

Additional observations from a re-analysis of the deposited data

How the results depend on the processing

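With limma, 0 of the 6 tested members passed under any of the 13 alternatives, where the lowest adjusted p was 0.307, for Mdm4 with the stricter filter. The count over all genes was 40 with the stricter filter, 45 with the intensity trend, and between 0 and 20 when an array was left out. Quantile normalization turned Mdm2 to -0.020 and Aen to -0.021. The mean of all probe sets turned Trp53inp1 to -0.16, Polh to -0.15 and Trp73 to 0.054, and left 2 members in place of 4 higher in spleen in both mice. Without an array each in turn, Mdm2 ran from -0.078 to 0.13, Trp53inp1 from -0.093 to 0.20 and Aen from -0.036 to 0.066. With mouse as a replicate block 0 genes passed, the differences were the same by construction, and the adjusted p was 0.355 for Mdm4, 0.388 for Sesn1 and 0.477 for Ccng1; the block changed no call among the named genes. The cause of these shifts was not tested. Intensities below the filter limit what can be said of Phlda3, Zmat3 and Tnfrsf10b.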
